A study of Mus musculus with 2 samples.

Results

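The genes described here are 10 genes of the endoplasmic reticulum (ER) stress and unfolded protein response: Hspa5, Hsp90b1, Pdia4 and Sdf2l1, Herpud1 and Dnajb9, and Xbp1, Atf4, Ddit3 and Trib3. They were taken by symbol from the gene tables of embryonic mouse hearts, in which 17646 genes were listed in at least 1 library, and all 10 were found. The series compares 1 library of wild-type heart (WT) with 1 library of Srsf10 knockout heart (SRSF10-/-), both from BALB/c mice at embryonic day 13.5. Srsf10 is an SR protein that regulates splicing, and the comparison asks which heart transcripts differ when it is lost. The labels give neither the knockout allele nor the number or sex of the embryos pooled or used per library. With 1 library per genotype, no difference has a replicate check, none was tested, and higher and lower refer to these 2 libraries.

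The ER is where secreted and membrane proteins fold. When unfolded proteins build up there, the sensors IRE1, PERK and ATF6 start the unfolded protein response: IRE1 cuts a short intron out of the Xbp1 mRNA, PERK phosphorylates the translation factor eIF2alpha so that Atf4 mRNA is translated more, and ATF6 is cut to release a transcription factor. Their targets are the ER chaperones, the ER-associated degradation genes and, under strong stress, Ddit3 and Trib3. In heart muscle a specialised part of the same organelle, the sarcoplasmic reticulum, stores calcium. Several steps of the response act on splicing, translation or protein cutting, which totals of reads per gene do not show.

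The ER stress element (ERSE), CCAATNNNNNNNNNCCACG, and its relative ERSE-II, ATTGGNCCACG, are the sequences through which ATF6 and XBP1 are known to act. Both were searched on both strands in the 250 bases before the start of each gene, and N is any base. The exact ERSE was found for 2 of the 10 genes, Hspa5 and Hsp90b1, and in 0.113% of all 32851 promoters searched. The exact ERSE-II was found for Herpud1 and in 0.0304% of the promoters. The matched sites do not overlap in these promoters, although ERSE and ERSE-II both end in CCACG. The amino acid response element core TGATGNAA, through which ATF4 is known to act, was searched in the same 250 bases. It was found for Herpud1 and in 3.45% of all promoters. Sequence further from the start was not searched, so a gene without a match may hold any of these motifs there. A match is a description of the letters, not a measured binding site. The promoters shown are those of the 3 members with a match, among them the 2 members with the highest levels. They are RefSeq sequences of build GRCm38.p6, 5′ to 3′ on the gene's strand, with the motif matches in capitals: Hspa5 at chr2:34771840-34772089 (plus strand), Hsp90b1 at chr10:86705445-86705694 (minus strand) and Herpud1 at chr8:94386179-94386428 (plus strand). In Herpud1 the first capitals are the amino acid response element core on the opposite strand and the second are ERSE-II.
Hspa5: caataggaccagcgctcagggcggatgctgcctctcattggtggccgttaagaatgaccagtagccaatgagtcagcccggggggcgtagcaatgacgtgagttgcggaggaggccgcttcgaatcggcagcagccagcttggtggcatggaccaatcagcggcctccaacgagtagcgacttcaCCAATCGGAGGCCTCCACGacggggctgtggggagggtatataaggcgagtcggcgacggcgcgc
Hsp90b1: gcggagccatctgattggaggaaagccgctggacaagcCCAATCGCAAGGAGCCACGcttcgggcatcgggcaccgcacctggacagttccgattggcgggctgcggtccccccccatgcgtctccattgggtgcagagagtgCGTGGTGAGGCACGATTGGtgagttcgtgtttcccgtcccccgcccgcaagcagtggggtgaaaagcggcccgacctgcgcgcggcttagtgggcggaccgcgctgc
Herpud1: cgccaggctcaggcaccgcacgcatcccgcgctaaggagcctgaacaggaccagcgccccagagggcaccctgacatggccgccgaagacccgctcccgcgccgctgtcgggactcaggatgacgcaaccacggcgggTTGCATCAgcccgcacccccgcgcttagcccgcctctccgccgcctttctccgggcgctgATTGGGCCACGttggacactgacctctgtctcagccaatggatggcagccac

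The stretch that IRE1 removes from Xbp1 mRNA is shown next, because the gene totals given here count both forms. It was located as the 26 bases between a pair of CNGCNGN loops that all 3 coding Xbp1 transcripts of the GENCODE M21 annotation hold. It spans bases 815 to 840 of the longest of them. The capitals mark the removed bases, and 20 bases are given on each side. A length of 26 is not a multiple of 3, so removal shifts the reading frame.
Xbp1: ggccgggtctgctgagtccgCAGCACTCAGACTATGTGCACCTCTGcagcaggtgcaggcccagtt

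Depth was close in both hearts, at 39.61 M (wild type) and 38.89 M (knockout) uniquely mapped reads summed over the listed genes. Library reads and shares of them refer to these totals. Srsf10 itself had 5245 wild-type and 212 knockout reads, 4.12% of the wild-type share (3.57 to 4.72). Heart muscle transcripts were abundant in both libraries, with cardiac actin (Actc1) at 6350 wild-type and 5799 knockout RPKM, which are reads per kilobase of listed gene length and M reads. The 9 cardiomyocyte markers, Actc1 among them, took 3.74% of wild-type and 3.70% of knockout reads. Summed over 4 Y-linked genes, the wild-type library held 2943 reads and the knockout library 7, so sex and genotype cannot be told apart. Intervals in parentheses are exact 95% intervals of the ratio of reads per library read, and they cover counting error only.

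Of the 4 chaperone genes 3 were abundant and nearly level between the hearts, and Sdf2l1 was higher in the knockout. Of the 3 transcription factors, Xbp1 was level, Atf4 was lower and Ddit3 was higher. Hsp90b1 was 1.05-fold lower in the knockout and Hspa5 and Pdia4 1.03-fold, Dnajb9 and Xbp1 lay within 1.02-fold of wild type, and Atf4 was 1.18-fold lower. Sdf2l1, Ddit3 and Trib3 were 1.15-fold, 1.26-fold and 1.73-fold higher. Together the 10 genes took 0.188% of wild-type reads and 0.180% of knockout reads. In whole tissue, fewer cells of a type and less RNA per cell cannot be told apart.

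**Figure D1:**
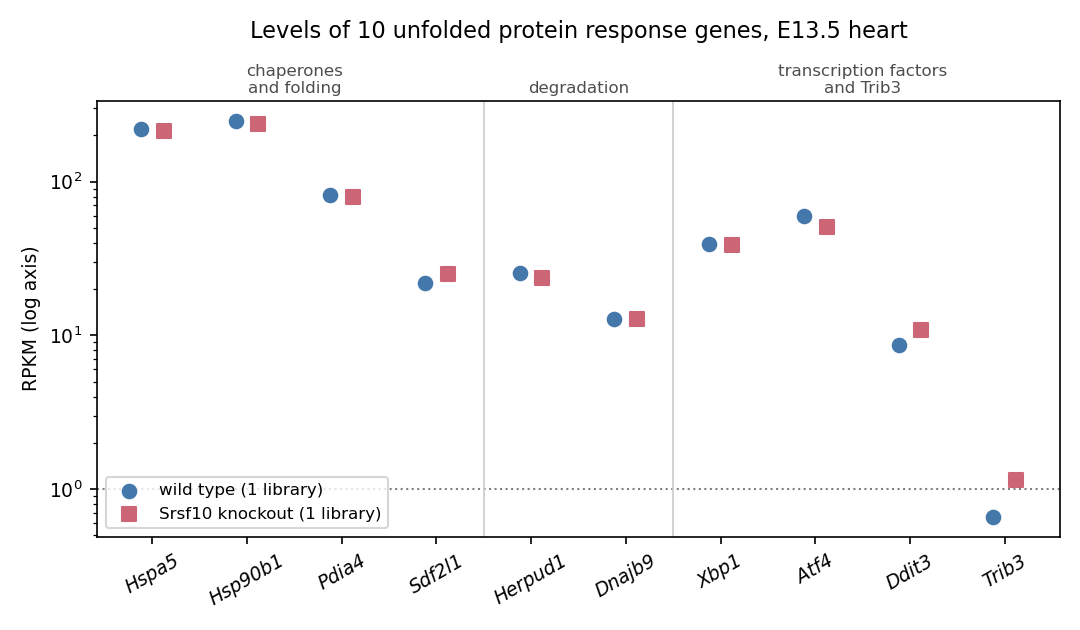
Level of each gene in RPKM (log axis) in the wild-type library (circles) and the Srsf10 knockout library (squares), ordered by role; the dotted line is 1 RPKM, the level from which a gene counted as measured. Hsp90b1 and Hspa5 stand highest in both libraries, at 213 to 249.8 RPKM, and Trib3 lies near the line.

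Hsp90b1, which encodes GRP94, the HSP90-type chaperone of the ER, had the highest level of the 10 genes. It had 249.8 RPKM (31878 reads) in the wild type and 237 RPKM (29736 reads) in the knockout, a read ratio of 0.9502 (0.935 to 0.965). Hspa5 encodes BiP, the HSP70-type chaperone that also keeps the sensors inactive, and it had 219.9 RPKM (22759 reads) in the wild type and 213 RPKM (21683 reads) in the knockout. Its read ratio was 0.971 (0.953 to 0.989). By wild-type RPKM, Hsp90b1 held rank 204 and Hspa5 rank 223 of all listed genes. Pdia4, a protein disulfide isomerase (ERp72) that forms and rearranges disulfide bonds, had 82.1 RPKM in the wild type and 79.8 RPKM in the knockout, a read ratio of 0.973 (0.943 to 1.004). These 3 differences are small among all genes: 70.5%, 82.3% and 83.8% of the 12329 measured genes had a larger absolute log2 ratio than Hsp90b1, Hspa5 and Pdia4.

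Sdf2l1 alone of the 4 chaperone members was higher in the knockout. Of the 25 other ER chaperones and folding enzymes described below, 14 also had a log2 ratio above 0 and 11 below. Of all measured genes, 48.2% lay above 0. Sdf2l1 encodes an ER-resident partner of BiP and its J-domain cofactors, and had 21.9 RPKM (963 reads) in the wild type and 25.2 RPKM (1084 reads) in the knockout. Its read ratio was 1.15 (1.05 to 1.252), and 34.3% of measured genes had a larger absolute log2 ratio. Set against Hspa5 within each library, the RPKM ratio of Sdf2l1 to Hspa5 was 0.0998 in wild-type and 0.118 in knockout heart, a change of 1.18-fold (1.08 to 1.29). The same measure for Hsp90b1 over Hspa5 was 1.14 and 1.11, a change of 0.979-fold (0.955 to 1.003), and for Pdia4 over Hspa5 it changed by 1.002-fold (0.966 to 1.04). These within-library ratios do not depend on how the libraries are scaled. Only 9 such pairs were computed, all chosen with the values known, and no share over other gene pairs stands beside them.

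Both degradation genes stayed close to wild type. Herpud1, an ER membrane protein that helps assemble the degradation complex, had 25.4 RPKM (1966 reads) in the wild type and 23.6 RPKM (1788 reads) in the knockout, a read ratio of 0.926 (0.868 to 0.988). Dnajb9 encodes ERdj4, a J-domain cofactor of BiP that promotes degradation and restrains IRE1. It had 12.8 RPKM in both libraries, from 944 wild-type and 925 knockout reads. Its read ratio of 0.998 (0.911 to 1.09) was the closest to 1 of the 10 genes, and its direction turned under 3 of the 5 rescalings tried. Of all measured genes, 99.0% had a larger absolute log2 ratio.

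Xbp1, the transcription factor activated by IRE1, was level in total reads. It had 39.3 RPKM (3316 reads) in the wild type and 38.6 RPKM (3198 reads) in the knockout, a read ratio of 0.982 (0.936 to 1.03). The stretch printed above makes up 1.22% of the listed length of 2129 bases, so the spliced and unspliced forms cannot be told apart in these totals.

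Atf4, the transcription factor translated when eIF2alpha is phosphorylated, was the member with the largest ratio in the direction of the wild type. It had 59.9 RPKM (4091 reads) in the wild type and 50.7 RPKM (3402 reads) in the knockout, a read ratio of 0.847 (0.809 to 0.887). Among 2176 measured genes with read numbers within 1.5-fold of its own, 17.7% had a larger absolute log2 read ratio. Ddit3 went the other way. It encodes CHOP, a transcription factor that ATF4 is known to induce, and had 8.60 RPKM (330 reads) in the wild type and 10.8 RPKM (407 reads) in the knockout, a read ratio of 1.26 (1.08 to 1.46). Among 1762 measured genes with like read numbers, 27.5% differed more.

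Trib3, a pseudokinase induced by ATF4 and CHOP that restrains them in turn, was barely present. It had 0.660 RPKM (53 reads) in the wild type and 1.14 RPKM (90 reads) in the knockout, a read ratio of 1.73 (1.22 to 2.48). It counted as measured only through the knockout library, so it had to be higher there. Among 372 measured genes with like read numbers, 27.4% had a larger absolute log2 read ratio. Genes near 1 RPKM can enter this pool only through their higher library, so the share does not tell how usual such a ratio is. Set against Atf4 within each library, Ddit3 had an RPKM ratio of 0.144 in wild-type and 0.213 in knockout heart, a change of 1.48-fold (1.27 to 1.73). The ratio of Trib3 to Atf4 was 0.0110 and 0.0225, a change of 2.04-fold (1.43 to 2.93), while that of Trib3 to Ddit3 changed by 1.38-fold (0.938 to 2.03). The Trib3 ratios carry its selection through the knockout library, and Atf4 was the member with the lowest read ratio. These pairs too were chosen with the values known, and no share over other gene pairs stands beside them.

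**Figure D2:**
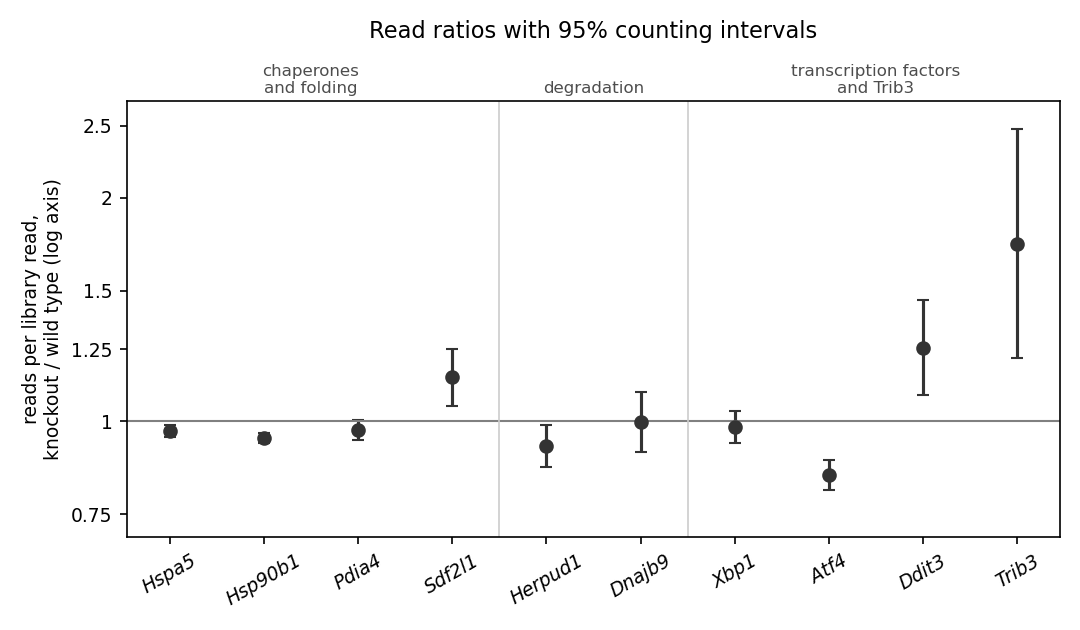
Ratio of reads per library read, knockout over wild type (log axis), for the 10 genes; bars are exact 95% intervals that cover counting error only. Sdf2l1, Ddit3 and Trib3 lie above 1 with their intervals, Atf4 lies at 0.847, and the other 6 genes lie between 0.926 and 0.998.

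The members were read against all genes on the log2 ratio of RPKM + 1. Of the 10 genes, 2 were at least 1.2-fold higher in the knockout, Ddit3 at 0.30 and Trib3 at 0.37, where 10.1% of the 12329 measured genes were. Without Trib3, which had to be higher, the count was 1 of 9 (11.1%), near that share. None was at least 1.2-fold lower, where 10.4% of measured genes were, and none reached 1.5-fold in either direction, where 1.52% were higher and 1.44% lower; at 2-fold the shares were 0.211% and 0.333%. The median log2 ratio of the 10 genes was -0.03, or -0.04 without Trib3, and that of all measured genes was -0.01 with quartiles of -0.14 and 0.13. Counting intervals left out 1 for 7 of the 10 genes, against 59.6% of measured genes. At this depth the interval leaves out 1 for most genes, so it says little about the genotype.

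**Figure D3:**
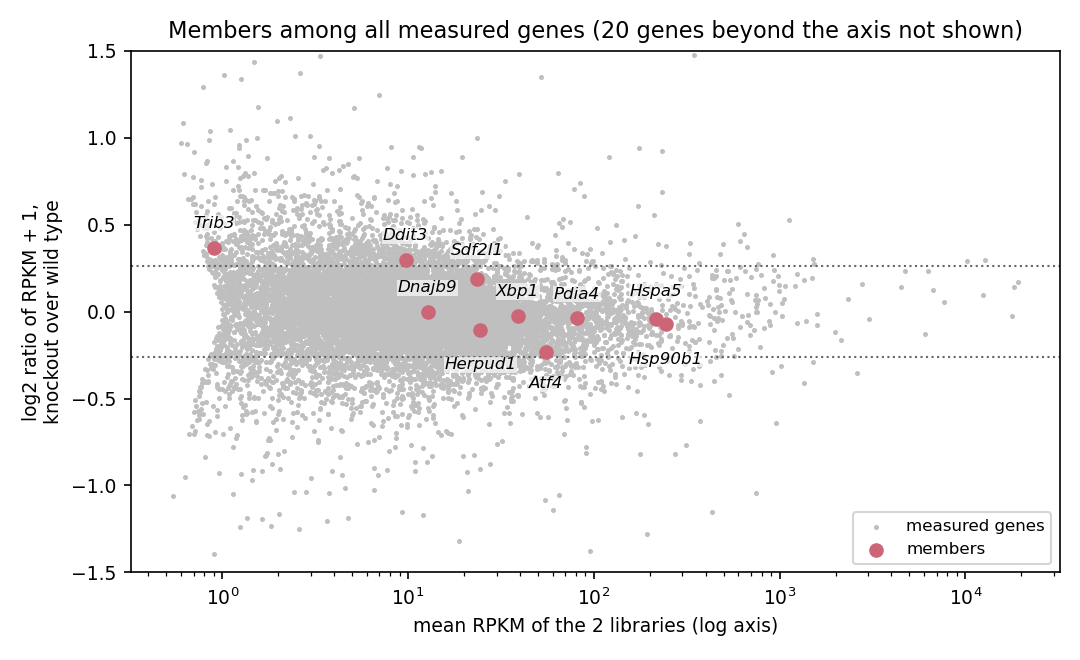
Log2 ratio of RPKM + 1 (knockout over wild type) against mean RPKM of the 2 libraries (log axis) for all measured genes (small points) and the 10 members (large points); dotted lines mark 1.2-fold, and 20 genes beyond ±1.5 are not shown. Only Ddit3 and Trib3 lie outside the lines.

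The listed gene length sets the RPKM and the covered share, and it was the same in both tables for all 10 genes. For Hsp90b1 it was 3222 bases, which equals a GENCODE M21 transcript classed as a retained intron and exceeds the longest coding transcript of 2825 bases. The listed length of Ddit3, 969 bases, likewise equals a retained-intron transcript, against 890 bases for the longest coding one. The annotation used for counting is not given, so an equal length does not show that these forms were counted. Whether intron sequence entered the reads, levels or read ratios of these genes cannot be told. In the same annotation, exons of Ddit3 overlap those of Mars on the opposite strand, and exons of Hsp90b1 overlap a pseudogene on the opposite strand. Whether strand was used in counting is not given in the sources used here, so reads of such partners cannot be told apart. On the same strand, exons of Ddit3 overlap a second annotated coding gene that also bears the name Ddit3, and exons of Hsp90b1 overlap the transcript Gm15344 and the miRNA gene Gm25745, which strand could not separate. For Dnajb9, 11.3% of the 31-base words of its longest coding transcript also occur in another gene, for Ddit3 8.72%, all shared with that second Ddit3 entry, and for Hsp90b1 5.04%. For the other 7 genes at most 0.649% did.

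Reads covered most of each of the 10 genes in both libraries, and Atf4 had the largest difference in covered share among them. The authors' coverage column was read as the percent of the listed length covered by reads, from its name and percent signs. Of its 34056 values, 1 lies over 100, at 100.06%, so the way it was computed is not fully known. For Atf4 it was 89.15% in wild-type and 99.71% in knockout heart, although the wild type had more reads. The next largest difference was that of Hsp90b1, with 86.9% in wild-type and 89.63% in knockout heart. The other 8 genes differed by at most 1.46 points. Of 10286 genes with at least 300 reads in each library, 2% were covered at least 10 points more in the knockout and 1.98% at least 10 points less, a threshold chosen after the values were seen. Atf4 was 1 of the former, and Trib3, at 88.6% and 89.54%, had too few reads to be counted there. Among other pathway genes, Dnajb11 (51.05% in wild-type and 71.99% in knockout heart) and Ppp1r15a (83.48% and 94.48%) were also of the former. The position of the uncovered bases is not given in the tables.

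**Figure D4:**
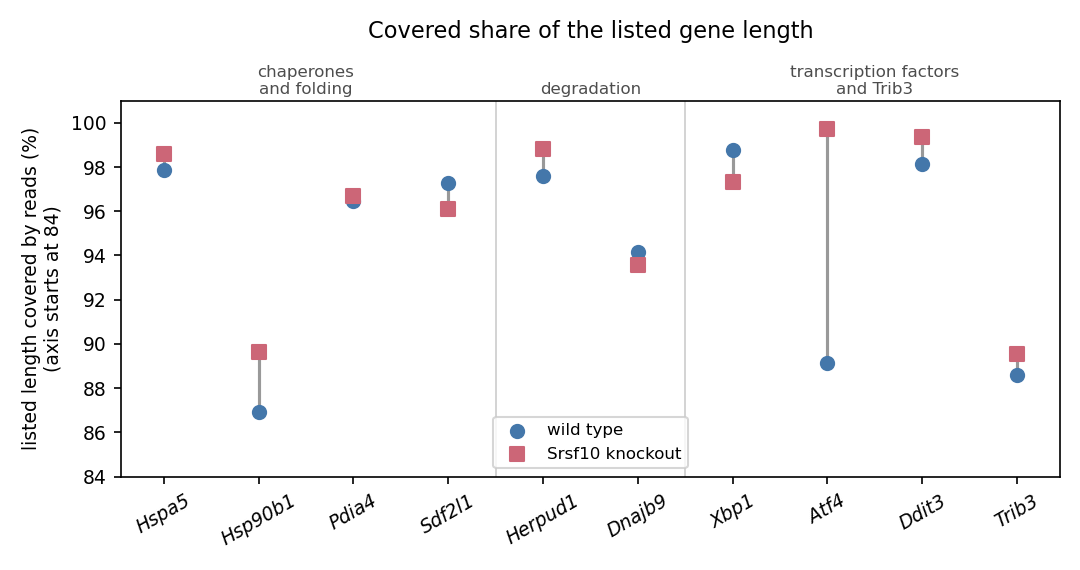
Percent of the listed gene length covered by reads in the wild-type (circles) and knockout (squares) library for the 10 genes; the axis starts at 84%. Atf4 is the only gene with a difference of over 10 points.

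Other genes of the pathway were described by 8 lists, of whose 126 genes 125 were listed and 119 measured. Of the 119, 6 were at least 1.2-fold higher in the knockout (5.04%, against 10.1% of all measured genes) and 17 at least 1.2-fold lower (14.3%, against 10.4%). None reached 1.5-fold. Here and in the lists below, these folds are on RPKM + 1, which understates the change of low genes. Some read ratios given below, such as that of Nupr1, went past 1.5-fold. Nupr1, counted among the 17, was measured only through the wild type. The median log2 ratio of the 119 genes was -0.06.

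The sensors and eIF2alpha kinases were close to level. None of the 7 was 1.2-fold apart, and the median log2 ratio was 0.00. Atf6b, a relative of ATF6, was the most abundant, with 23.4 RPKM in the wild type and 20.9 RPKM in the knockout. Eif2ak2 (PKR, the kinase activated by double-stranded RNA) and Eif2ak1 (the heme-regulated kinase) had the largest log2 ratios of RPKM + 1, 0.20 and 0.18. Eif2ak3, which encodes PERK, had 854 wild-type and 836 knockout reads, and Ern1, which encodes IRE1, had 734 and 652. Atf6 had 2996 and 3207. These 3 sensors, named after their values were seen, lay at log2 ratios of 0.00, -0.10 and 0.11. Among 12 genes for Xbp1 mRNA ligation, eIF2alpha and ATF6 cutting, 1 was at least 1.2-fold lower (8.33%, against 10.4% of measured genes) and the median was -0.02. Ddx1, a part of the RNA ligase complex, had the highest mean level, with 45.5 RPKM in the wild type and 44.2 RPKM in the knockout. In the knockout alone Eif2s1, which encodes eIF2alpha, was higher at 47.1 RPKM, against 41.2 RPKM in the wild type. Eif2b4, a subunit of the exchange factor that phosphorylated eIF2alpha blocks, was at -0.27, and Mbtps2, a protease that cuts ATF6, at -0.21.

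The other folding enzymes moved little and in both directions. Of 25, 1 was at least 1.2-fold higher and 1 at least 1.2-fold lower (4.0% each, against 10.1% and 10.4% of measured genes), with a median log2 ratio of 0.02. Calreticulin (Calr), a calcium-binding chaperone of glycoproteins, was the most abundant, with 373 RPKM in the wild type and 330 RPKM in the knockout. Erp29, a disulfide isomerase-like protein without redox activity, had a log2 ratio of -0.37, and Fkbp2, a prolyl isomerase of the ER, one of 0.29. Of 19 measured genes of ER-associated degradation, 4 were at least 1.2-fold lower (21.1%, against 10.4%) and 1 higher (5.26%, against 10.1%), with a median of -0.06. Vcp, the ATPase that pulls proteins out of the ER, had 174 RPKM in the wild type and 163 RPKM in the knockout. Herpud2, the homologue of Herpud1, was at -0.35, next to -0.11 for Herpud1 itself. Erlec1, a lectin that recognises trimmed glycoproteins, was at -0.33.

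The translocon and signal peptide list had 1 gene at least 1.2-fold higher (6.67%, against 10.1%) and 2 lower (13.3%, against 10.4%) among 15, with a median of -0.02 that turned to 0.00 in 2 rescalings. Ssr3, a subunit of the translocon-associated complex, had 124 RPKM in the wild type and 133 RPKM in the knockout. Sec61g, the small translocon subunit, was at 0.48 with only 133 and 210 reads, and Sec11c, a catalytic subunit of signal peptidase, at -0.36.

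Of 19 measured ATF4 and CHOP target genes, 15 lay below 0 and 4 above, where 51.8% of all measured genes lay below 0 and 48.2% above. In this list 5 were at least 1.2-fold lower in the knockout (26.3%, against 10.4%) and 1 higher (5.26%, against 10.1%). The median log2 ratio was -0.13, beside -0.24 for Atf4 and 0.30 for Ddit3. Ddit3 and Trib3 (0.37), described above as induced by ATF4 or by ATF4 and CHOP, are members and were not in this list. The counts therefore depend on how targets were divided among lists. Gars, a glycyl-tRNA synthetase and the most abundant gene of the list, had 100.5 RPKM in the wild type and 89.3 RPKM in the knockout. Slc7a5, a transporter of large neutral amino acids, had 13.2 RPKM and 9.52 RPKM, a read ratio of 0.720 (0.670 to 0.774). Nupr1, a stress-induced nuclear protein, had 127 wild-type and 71 knockout reads, a read ratio of 0.569 (0.420 to 0.767). It was measured only through the wild type, so it had to be lower in the knockout. Nupr1 is among the 5 and the 15 genes counted above, and no count without it was made. Among 11 other measured stress transcription factors, 2 were at least 1.2-fold lower (18.2%, against 10.4%) and 1 higher (9.09%, against 10.1%), with a median of -0.09. Atf5, a factor translated like Atf4, had 10.9 RPKM (786 reads) in the wild type and 7.27 RPKM (513 reads) in the knockout, a read ratio of 0.665 (0.594 to 0.744). Atf3, a stress-induced factor downstream of ATF4, had a read ratio of 0.707 (0.608 to 0.822). Nfyc, a subunit of NF-Y, which binds the CCAAT part of ERSE, was the most abundant, with 53.7 RPKM in the wild type and 53.9 RPKM in the knockout.

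**Figure D5:**
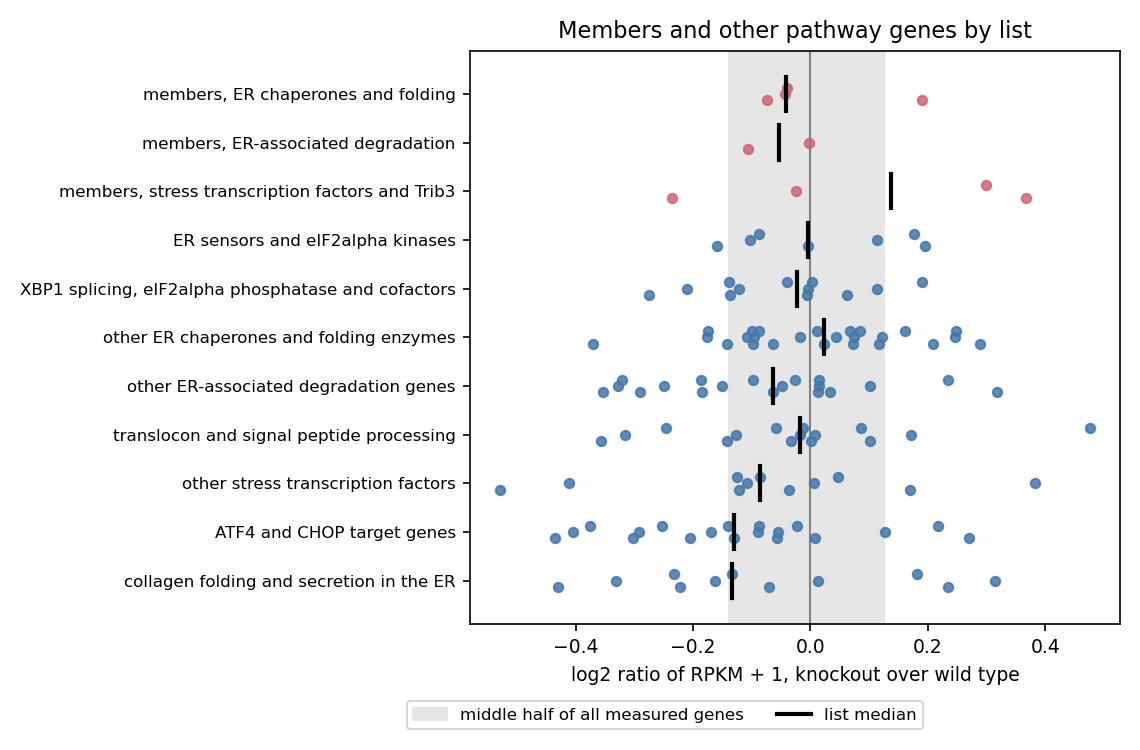
Log2 ratio of RPKM + 1, knockout over wild type, for the measured genes of each list (points); black bars are list medians and the shaded band spans the quartiles of all measured genes, -0.14 to 0.13. Medians of the 8 other pathway lists lie between -0.13 and 0.02, and the member list with the transcription factors holds points on both sides.

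Genes that fold and export collagen in the ER had a median of -0.13, with 2 of 11 at least 1.2-fold lower (18.2%, against 10.4%) and 1 higher (9.09%, against 10.1%). Serpinh1 (HSP47), the collagen chaperone, had 358 RPKM in the wild type and 319 RPKM in the knockout. Fkbp10, a prolyl isomerase of collagen folding, was at a log2 ratio of -0.43, and P3h1, a collagen prolyl hydroxylase, at -0.33. Markers of fibroblasts and cushion mesenchyme, the cells that secrete most collagen, were below 0 in 8 of 8, where 51.8% of measured genes were. Their summed level was 891 RPKM in the wild type and 637 RPKM in the knockout, with Col1a1 at a log2 ratio of -0.59 and Dcn at -0.62. None of them was at 0 reads, and their part in the ratios of Hsp90b1, Hspa5 or Serpinh1 was not tested.

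Other cell types also differed beside the higher values of Sdf2l1, Ddit3 and Trib3. Macrophage and leukocyte markers were above 0 in 6 of 7 measured genes, where 48.2% of all measured genes were, with a summed level of 46.2 RPKM in the wild type and 62.7 RPKM in the knockout, led by Lyz2 in level and Fcgr3 in log2 ratio (0.78). Epicardial markers were above 0 in 5 of 6, beside the same 48.2%, with 127 and 149 RPKM. Hepatocyte markers, of a highly secretory cell, summed to 5.14 RPKM in the wild type and 2.003 RPKM in the knockout, where 2 of 6 were at 0 reads. Endothelial markers summed to 337 RPKM and 333 RPKM, cardiomyocyte markers to 18942 RPKM and 17233 RPKM, and erythroid markers to 3027 RPKM and 2835 RPKM. By reads, the cardiomyocyte markers were nearly level, at 3.74% of the wild-type and 3.70% of the knockout library. Cardiomyocyte markers were below 0 in 7 of 9, where 51.8% of measured genes were. Of these 9, 2 were at least 1.2-fold lower (22.2%, against 10.4%) and 1 higher (11.1%, against 10.1%). Endothelial markers were above 0 in 5 of 8 and erythroid markers in 3 of 5 measured, beside 48.2%. Of 4 plasma cell markers only Sdc1, which other cells also make, was measured. The part of these cell types in the ratios of the 10 genes was not tested.

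Triadin (Trdn) and the calsequestrin gene Casq2, of the sarcoplasmic reticulum, differed in opposite directions. The read ratio of Trdn was 1.24 (1.196 to 1.285) and that of Casq2 was 0.766 (0.738 to 0.795), beside 0.971 for Hspa5 and 0.9502 for Hsp90b1. Of all measured genes, 16.1% had a larger absolute log2 ratio than Trdn and 9.67% a larger one than Casq2. The other calsequestrin gene, Casq1, had a mean of 132 RPKM over the libraries and a log2 ratio of RPKM + 1 of -0.10.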

How the data were processed

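Heart RNA was sequenced in 2 libraries, grouped by the genotype in their labels. Bowtie 0.12.2 and mm9 stand in the submitters' processing notes. Annotation, filters and strand use: not given in the sources used here. Per the file headers, the deposited counts are numbers of uniquely mapped reads. The authors also deposited RPKM, and recomputing it from reads, listed length and total gave all 34056 values within a millionth. A gene missing from 1 table was taken as 0 reads.

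Symbols were matched on Ensembl identifier for 17196 of 17646 genes, and 4 list genes were found under another symbol. Measured genes had at least 1 RPKM in at least 1 library. Log2 ratios use RPKM + 1, which understates the change of low genes. Read ratios carry exact conditional binomial (Clopper-Pearson) 95% intervals, and ratios between genes exact conditional odds ratio intervals; duplicate PCR reads are not removed by molecular identifiers, so these cover counting error only. The interval code was tested on simulated data. With 1 library per group there was no test.

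The members and lists were chosen with earlier results of these data known. Named are the members, Srsf10, Trdn, Casq2, and in each pathway list the most abundant measured gene and the 2 with the largest absolute log2 ratio. For marker lists the rule was the most abundant gene and the 1 with the largest ratio. It was not carried through: no epicardial, endothelial, erythroid or hepatocyte marker is named, and of the cardiomyocyte markers only Actc1. Eif2ak3, Ern1, Atf6, Eif2s1, Casq1, Dnajb11 and Ppp1r15a are named outside these rules. With 2 libraries a pattern is a single ratio, so no gene was named for a like pattern. Annotation was GENCODE M21 and promoters RefSeq, both GRCm38, matched by symbol for all 10 members. Tools were Python 3.11.15, scipy 1.17.1, pandas 2.3.3 and edgeR 4.0.16 (TMM factors only).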

Additional observations from a re-analysis of the deposited data

How the results depend on the processing

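No paired analysis was possible because each group has 1 library, and no library could be left out. The settings varied were the pseudocount (0.1 and 5), the low-value filter (none, or 5 RPKM), fold rules of 1.5 and 2, and rescalings by TMM, median-of-ratios size factors, the reads outside the 50 most abundant genes or the median log2 ratio. A rescaling to the reads outside the mitochondrially encoded genes and leaving out Trib3 were added after the data were seen. The count of 2 members at least 1.2-fold higher became 0 with a pseudocount of 5 and with the fold rules of 1.5 and 2, and 1 with an RPKM of at least 5, which leaves out Trib3. It stayed at 2 with a pseudocount of 0.1, with no filter and under the 5 rescalings, and no alternative gave a member at least 1.2-fold lower. The members' median log2 ratio lay between -0.04 and -0.01 over 10 alternatives. The median of the sensor and kinase list became 0.11 with an RPKM of at least 5, where fewer genes remained; no other list median moved by more than the median counting error of its genes. Read ratios of all 10 members stayed within their counting intervals under the 5 rescalings. Depth limits Trib3, at 53 and 90 reads, and Ddit3, at 330 and 407.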
